A study of Rattus norvegicus with 24 samples.

Results

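Gene expression in the rostral ventrolateral medulla (RVLM) was compared between the spontaneously hypertensive rat (SHR), an inbred strain that develops high blood pressure, and its normotensive control strain, the Wistar-Kyoto rat (WKY). All arrays labelled with this structure were taken, 5 from SHR and 5 from WKY, which are 10 of the 24 arrays of the series. The rats of both strains were males aged 10 to 13 weeks, and the labels name no treatment. Each Affymetrix rat array (Genechip 230 2.0) carried RNA pooled from 5 rats, so n counts pools and the spread between single rats is not seen. The labels do not say whether the pools of a strain differ in litter, day of dissection or hybridisation, and p-values therefore measure the spread between these pools. The remaining 14 arrays hold other structures of SHR rats.

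The RVLM lies near the ventral surface of the brainstem. Its presympathetic neurons, part of which belong to the adrenaline-making C1 group, project to the spinal cord and set the sympathetic drive to heart and blood vessels. Excitation by glutamate, inhibition by GABA, and angiotensin and nitric oxide signalling in this region are all known to shift blood pressure, and overactivity of its neurons has been described in the SHR.

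The dissected tissue carried the transcripts of a catecholamine cell group of the hindbrain in both strains. The tyrosine hydroxylase gene Th, which encodes the first enzyme of catecholamine synthesis, had a mean of 122 ± 11.8 in SHR against 122 ± 18.8 in WKY (SD, n = 5 arrays each, as for every mean ± SD given). Pnmt, whose product makes adrenaline from noradrenaline, had a mean of 192 ± 50.8 in SHR against 178 ± 39.1 in WKY. Of 11 Hox genes, which mark position along the hindbrain, 6 passed the filter on dim probe sets, 1 did not and 4 were not analysed here. Those tested ran from Hoxb4 at 55.9 ± 29.4 in SHR and 71.0 ± 26.0 in WKY to Hoxb2 at 115 ± 12.4 in SHR and 128 ± 18.7 in WKY. The choline transporter gene Slc5a7 was bright at 1261 ± 107 in SHR and 1257 ± 290 in WKY. The vasopressin and oxytocin genes Avp and Oxt, which mark the hypothalamus, lay under the filter, as did the cerebellar granule cell gene Gabra6. The hypothalamic gene Pmch, at 37.7 ± 7.02 in SHR and 34.1 ± 5.67 in WKY, the cortical gene Neurod6, at 26.7 ± 8.50 in SHR and 31.9 ± 7.35 in WKY, and the Purkinje cell gene Pcp2, at 33.0 ± 8.14 in SHR and 34.5 ± 5.00 in WKY, passed the filter. They were as bright as Dbh, the noradrenaline-making hydroxylase gene, at 38.1 ± 8.47 in SHR and 33.4 ± 6.23 in WKY, and all 4 lay near or below the array medians. Summed over the 5 catecholamine markers measured, intensity was 489.6 to 625 in SHR and 423 to 579 in WKY.

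Array medians lay between 36.7 and 42.8, and Spearman correlations between any 2 of the 10 arrays between 0.945 and 0.976. The lowest mean correlation with its own group, 0.956, belonged to SHR array 2, and the highest was 0.969. Values are linear probe set intensities, and each difference is the log2 intensity in SHR minus that in WKY, after each array was set to a common median. Whether groups overlap was judged on the same scaled values.

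Few genes were called different between the strains, and most of the called genes separated the 2 sets of pools completely. Of 10415 genes tested by limma, 147 were called at an adjusted p under 0.05, which is 1.41%. In SHR 54 were higher (0.518%) and 93 were lower (0.893%), and 955 genes had an unadjusted p under 0.05. All 5 SHR values lay on one side of all 5 WKY values for 132 of the called genes, 49 above and 83 below. Over all tested genes 313 (3.01%) were separated in this way. Calls and separation rest on the same values, so separation is no further evidence for a call. Over probe sets, named or not, 295 of 18625 were called (1.58%), 136 higher (0.73%) and 159 lower (0.854%). The median difference over all tested genes was −0.03, and 40.9% of them lay above 0.

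Differences of at least 1 on the log2 scale, which is a 2-fold change, were found for 31 called genes, 13 higher and 18 lower in SHR. The smallest difference called was 0.39 upwards and −0.39 downwards. The standard error of a tested gene had a median of 0.126, and in simulated data of the same size 81% of differences of 1 but 22% of differences of 0.5 were called. The simulated noise was independent between probe sets, so deviations shared by many genes of an array were left out of it. Of the 147 genes, 86 kept their call whichever array was left out. The plot of difference against intensity shows calls from the dimmest tested probe sets up to Gabarapl1, and none among the brightest.

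**Figure D1:**
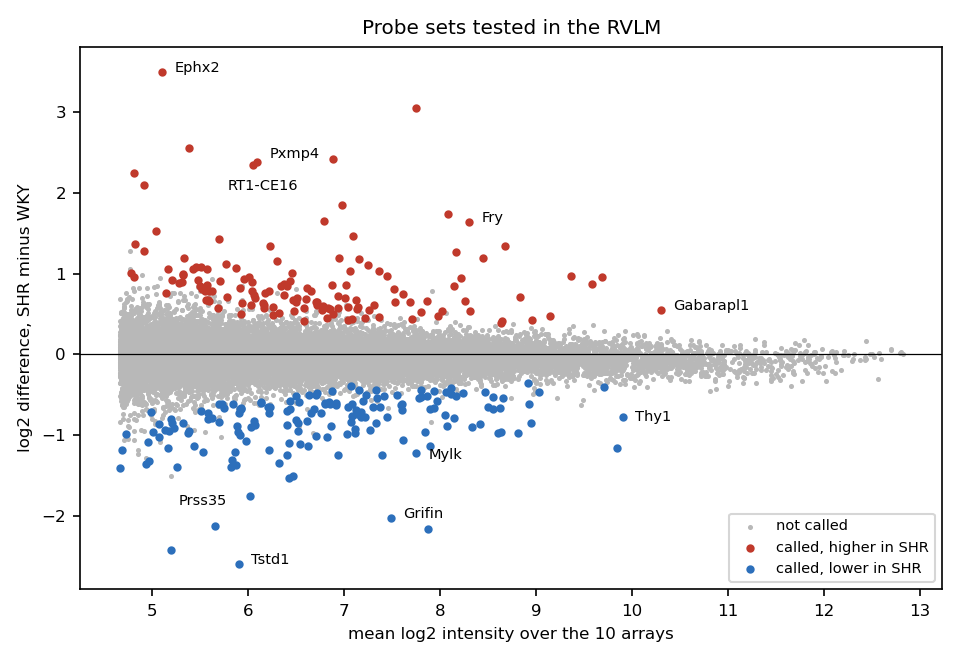
Log2 difference (SHR minus WKY, y axis) against the mean log2 intensity over the 10 RVLM arrays (x axis), with 1 point for each of 18625 tested probe sets. Red points are the 136 probe sets called higher in SHR and blue points the 159 called lower, with 10 genes named; on this scale, with no pseudocount, Ephx2 stands highest at 3.50 and Tstd1 lowest at −2.60.

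**Figure D2:**
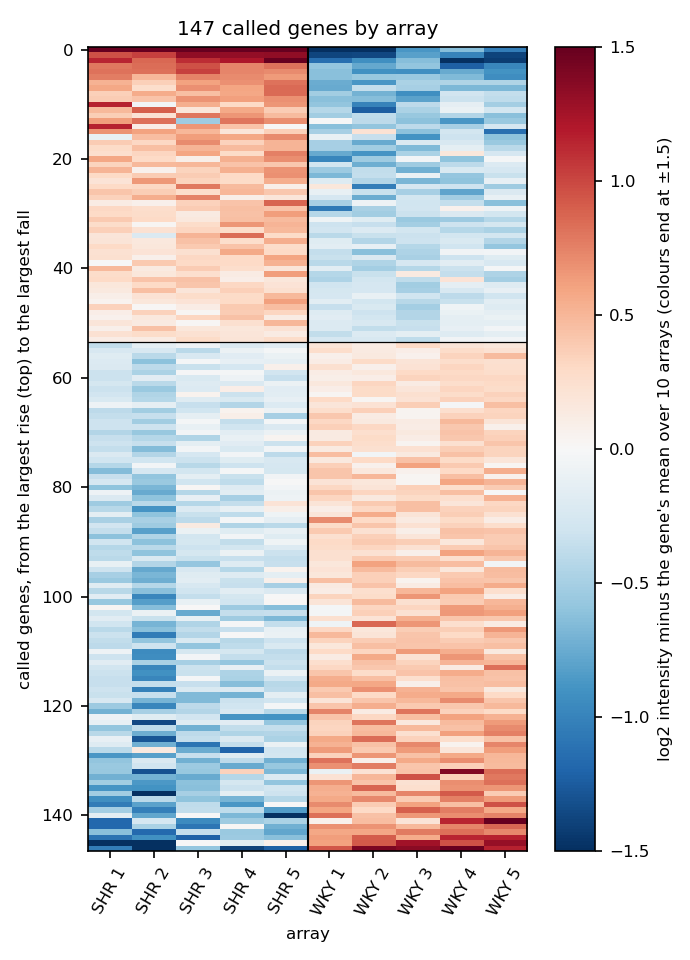
The 147 called genes (rows, from the largest rise at the top to the largest fall at the bottom) on the 5 SHR arrays (left) and the 5 WKY arrays (right); colour gives log2 intensity minus the gene's mean over the 10 arrays. The 54 genes above the horizontal line are higher in SHR and the 93 below it are lower. In both blocks the colour of most rows turns at the border between the strains. In 15 genes the groups overlap. In some others a single array, such as SHR array 1 for P3h4, carries the colour of the other strain.

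The largest rises in SHR among named genes were those of Ephx2, Pxmp4 and RT1-CE16, each over 5-fold without a pseudocount. The soluble epoxide hydrolase gene Ephx2, whose product degrades vasodilator epoxides of arachidonic acid, had intensities of 127, 128, 131, 98.2 and 106 on the SHR arrays, against 5.39, 3.12, 19.6, 21.1 and 15.7 on the WKY arrays. The SHR values were close together while every WKY value was below the median of any array, and the 95% interval of the difference, 2.62 to 4.38, was the widest among these 3 genes. The size of that difference depended on the scale: 3.50 without a pseudocount became 2.23 with a pseudocount of 16 and 1.23 with 64, called in each. The peroxisomal membrane protein gene Pxmp4 had 139, 151, 169, 168 and 165 on the SHR arrays, against 26.8, 26.9, 40.2, 32.6 and 24.2 on the WKY arrays. No SHR value of Pxmp4 was less than 3 times any WKY value, and the difference of 2.38 (SE 0.141, adjusted p = 2.45e-08) was repeated by its other probe set, with 2.24 (SE 0.237, adjusted p = 2.24e-05).

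The Pxmp4 promoter is printed because this gene had the smallest adjusted p among the named genes with a second probe set in the same direction. The sequence is that of the rat reference genome (RefSeq, GRCr8), of neither strain studied here, and runs from 250 bases before the transcription start to 50 bases after it; capitals mark CCAAT on either strand (CCAAT or ATTGG).
Pxmp4, chr3:163570780-163571079 (- strand): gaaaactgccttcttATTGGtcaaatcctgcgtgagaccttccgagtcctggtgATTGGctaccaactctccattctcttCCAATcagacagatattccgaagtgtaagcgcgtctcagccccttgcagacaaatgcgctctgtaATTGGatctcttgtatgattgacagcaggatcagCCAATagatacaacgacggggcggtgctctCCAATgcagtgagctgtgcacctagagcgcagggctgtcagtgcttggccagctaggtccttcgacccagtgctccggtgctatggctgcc
It holds 6 matches. At least 6 are held by 14 of 33469 rat promoters of this length (0.0418%), and at least 1 by 37.5%. A match describes the letters of the reference only.

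RT1-CE16, a class I gene of the rat major histocompatibility complex, had 153, 131, 140.3, 152 and 182 on the SHR arrays, against 30.8, 35.6, 44.3, 18.9 and 22.9 on the WKY arrays. Its lowest SHR value was above every WKY value, and the difference was 2.34 (SE 0.182, adjusted p = 6.97e-07). Fry, which encodes a very large protein that organises microtubules and cell polarity, was much brighter, with 578, 607, 636, 515 and 495 on the SHR arrays, against 208, 169.9, 173, 179 and 158 on the WKY arrays. The groups of Fry lay far apart for their spread, with a difference of 1.64 (SE 0.0952, adjusted p = 2.21e-08). Zfp597, a zinc finger protein gene, had 201, 214, 211, 182 and 187 on the SHR arrays, against 75.4, 65.8, 76.5, 45.4 and 52.5 on the WKY arrays, and its difference was 1.65 (SE 0.123, adjusted p = 4.17e-07).

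The next rises were of 2-fold or a little more and included the presynaptic gene Septin5 and the secreted glycoprotein gene Chi3l1. Septin5, a filament-forming GTPase that binds the vesicle fusion machinery at nerve endings, had 134, 115, 124, 122 and 112 on the SHR arrays, against 49.5, 51.5, 53.04, 45.3 and 36.9 on the WKY arrays. The groups did not overlap, and the difference was 1.34 (SE 0.112, adjusted p = 1.53e-06). Chi3l1 encodes a chitinase-like protein secreted by astrocytes and macrophages, and had 185, 172, 186, 196 and 209 on the SHR arrays, against 75.2, 68.6, 92.6, 86.6 and 84.4 on the WKY arrays, with a difference of 1.19 (SE 0.118, adjusted p = 1.06e-05). Actr8, a subunit of the INO80 chromatin remodelling complex, rose by 1.18 (SE 0.117, adjusted p = 1.10e-05), with a mean of 218 ± 21.9 in SHR against 94.6 ± 13.7 in WKY. Adpgk, the ADP-dependent glucokinase, rose by 1.11 (SE 0.112, adjusted p = 1.33e-05) on one probe set and by 1.47 (SE 0.124, adjusted p = 1.53e-06) on the other. The pseudogene Rrs1-ps9 rose by 1.12 (SE 0.147, adjusted p = 2.30e-04), with a mean of 82.1 ± 8.93 in SHR against 37.1 ± 5.07 in WKY.

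Among smaller rises, P3h4, a collagen-modifying protein of the endoplasmic reticulum, rose by 0.91 (SE 0.166, adjusted p = 0.00555), and the sulfotransferase gene Sult1d1 rose by 0.90 (SE 0.142, adjusted p = 0.00132), with a mean of 72.4 ± 7.10 in SHR against 38.2 ± 6.39 in WKY. Ifgga2l1 was dim, with a mean of 40.2 ± 9.40 in SHR against 19.7 ± 4.72 in WKY, and rose by 1.01 (SE 0.225, adjusted p = 0.0265). That call ended without SHR array 1, 2 or 4 or without WKY array 3, with adjusted p of 0.0541 to 0.0705.

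**Figure D3:**
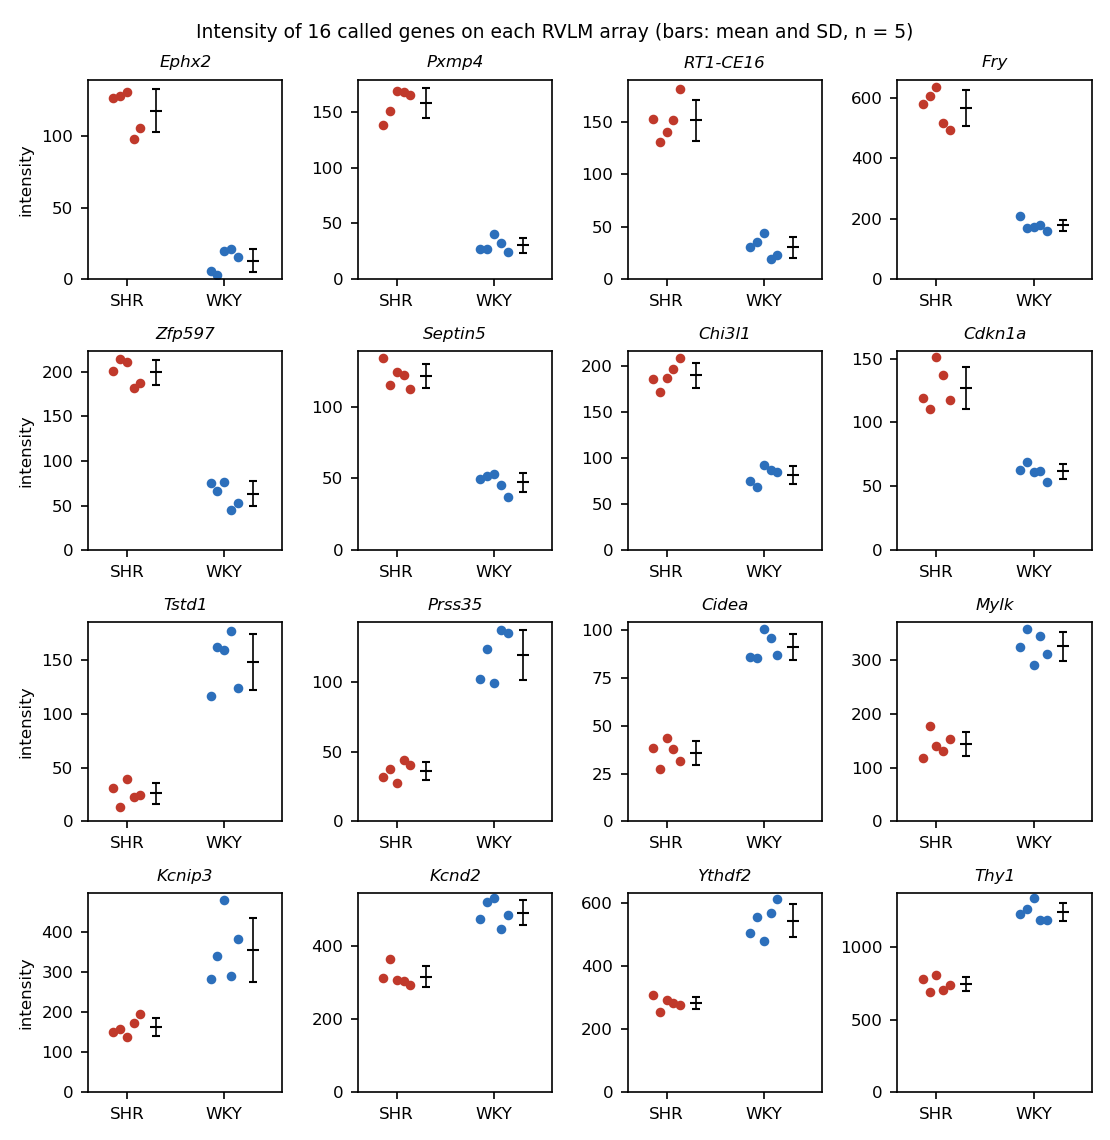
Intensity (linear scale from 0) of 16 called genes on each of the 5 SHR arrays (red, left) and 5 WKY arrays (blue, right), with the mean and SD beside each group. The 8 genes of the upper 2 lines are higher in SHR and the 8 of the lower 2 lines are lower, and in none do the groups overlap.

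The largest falls in SHR were those of Tstd1, Grifin, Prss35 and Cidea. Tstd1, which encodes a small thiosulfate sulfurtransferase, had 30.6, 13.6, 39.5, 22.5 and 24.6 on the SHR arrays, against 117, 162, 159, 177 and 124 on the WKY arrays. Every SHR value was far below every WKY value. The difference was −2.60 (SE 0.231, adjusted p = 2.86e-06), with a 95% interval of −3.09 to −2.11.

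The Tstd1 promoter of the reference genome (RefSeq, GRCr8) is shown because this gene had the largest fall; capitals mark GGGCGG on either strand (GGGCGG or CCGCCC).
Tstd1, chr13:86385429-86385728 (+ strand): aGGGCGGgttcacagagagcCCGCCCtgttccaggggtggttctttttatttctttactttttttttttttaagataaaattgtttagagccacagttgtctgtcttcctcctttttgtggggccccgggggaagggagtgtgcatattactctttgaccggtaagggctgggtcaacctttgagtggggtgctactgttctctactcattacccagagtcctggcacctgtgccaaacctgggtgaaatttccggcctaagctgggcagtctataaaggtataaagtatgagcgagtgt
Both of its matches lie at the far end from the start, and 33.1% of the 33469 promoters hold at least 1 match. The share with at least 2 was not counted. The Tstd1 promoter holds 0 matches of CCAAT. Which motif is marked was chosen for each printed promoter. GGGCGG also occurs in that of Pxmp4, at base −53, and in that of RT1-DMa printed below, at −184.

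Grifin, a relative of the galectins known from the lens, had 59.1, 20.1, 178, 156 and 181 on the SHR arrays, against 278, 346, 448, 334 and 415 on the WKY arrays. The 2 groups were separate but SHR varied widely, with arrays 1 and 2 far below arrays 3, 4 and 5. Its difference of −2.02 (SE 0.463, adjusted p = 0.0313) lost its call without SHR array 1 or without WKY array 2, 3, 4 or 5, with adjusted p of 0.0692 to 0.108. Prss35, a secreted serine protease relative, had 31.6, 37.5, 27.7, 43.8 and 40.2 on the SHR arrays, against 102, 123, 98.9, 137 and 135 on the WKY arrays. Here the groups were tight and separate, with a difference of −1.76 (SE 0.161, adjusted p = 4.13e-06). Cidea, a lipid droplet protein that promotes droplet fusion, had 38.4, 27.4, 43.7, 37.8 and 31.7 on the SHR arrays, against 86.02, 85.8, 101, 95.9 and 87.2 on the WKY arrays. Its difference was −1.39 (SE 0.147, adjusted p = 2.14e-05), and the gap between the strains was wider than the range of either.

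Further falls of at least 2-fold were those of Ncaph, Hmces, Setd1b, Elavl1 and Mylk. Ncaph, a subunit of condensin, fell by 1.37 (SE 0.188, adjusted p = 3.55e-04), with a mean of 38.6 ± 13.5 in SHR against 93.6 ± 5.24 in WKY. Hmces, which shields abasic sites in single-stranded DNA, fell by 1.34 (SE 0.238, adjusted p = 0.00448), with a mean of 55.5 ± 23.03 in SHR against 127 ± 12.6 in WKY. Setd1b, a methyltransferase of histone H3, fell by 1.35 (SE 0.272, adjusted p = 0.0124), with 14.2, 27.98, 15.7, 20.98 and 21.1 on the SHR arrays, against 32.7, 42.9, 36.3, 64.6 and 82.3 on the WKY arrays. The groups were separate, and the call missed the threshold without WKY array 4 (adjusted p = 0.0501). Elavl1, which encodes the RNA-stabilising protein HuR, had 62.3, 76.4, 92.9, 65.9 and 119 on the SHR arrays, against 205, 162, 194, 161 and 222 on the WKY arrays, a difference of −1.24 (SE 0.172, adjusted p = 4.07e-04). Its other probe sets gave −0.09 and −0.44, neither called, and the call ended with the mean of the probe sets (adjusted p = 0.0731) and in the fit of all 24 arrays (adjusted p = 0.0602). That fit keeps the RVLM difference of a probe set and takes its error from the spread within all structures.

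Mylk, the myosin light chain kinase that starts smooth muscle contraction, had 119, 177, 139, 131 and 153 on the SHR arrays, against 325, 359, 291, 345 and 311 on the WKY arrays. All SHR values were well below all WKY values, and the difference was −1.22 (SE 0.112, adjusted p = 4.18e-06). Mylk was the only one called by limma of 14 tested genes of smooth muscle, pericytes and contraction (7.14%, beside 1.41% of all genes). Acta2, the smooth muscle actin gene, had a mean of 93.8 ± 10.8 in SHR against 114 ± 18.6 in WKY, a difference of −0.31 (adjusted p = 0.378). Myh11, the smooth muscle myosin gene, had a difference of 0.01 (adjusted p = 0.990). The smooth muscle marker Tagln lay under the filter, with a mean of 10.4 ± 5.48 in SHR against 6.28 ± 5.03 in WKY.

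Maip1, a protein of the mitochondrial inner membrane, fell by 1.25 (SE 0.147, adjusted p = 7.90e-05). Ptgr1, a reductase that inactivates prostaglandins and leukotriene B4, fell by 1.205 (SE 0.207, adjusted p = 0.00343), with a mean of 40.4 ± 11.1 in SHR against 88.7 ± 13.98 in WKY. The GTPase gene Rragd, which acts in amino acid sensing by mTORC1, fell by 1.08 (SE 0.167, adjusted p = 0.00113). Lsg1, a GTPase of ribosome maturation, fell by 1.14 (SE 0.133, adjusted p = 7.62e-05) on the probe set that represents it, but the other probe set gave 0.33, not called (adjusted p = 0.531), and their mean was not called either (adjusted p = 0.17).

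The A-type potassium current, which slows repetitive firing, is carried in neurons by Kv4 channels together with KChIP and DPP subunits, and 2 of these subunits were lower in SHR. The channel gene Kcnd2 (Kv4.2) had 312, 366, 307, 305 and 294 on the SHR arrays, against 474, 522, 532, 446 and 485 on the WKY arrays. The highest SHR value, on array 2, was still below the lowest WKY value. The difference was −0.67 (SE 0.0833, adjusted p = 1.45e-04), and the other, dimmer probe set gave −0.97 (SE 0.148, adjusted p = 0.00102). Kcnip3, which encodes the calcium-binding subunit KChIP3, had 151, 158, 139, 174 and 197 on the SHR arrays, against 283, 342, 480.4, 291 and 383 on the WKY arrays. Its groups were separate although WKY ranged widely, and the difference was −1.13 (SE 0.142, adjusted p = 1.57e-04).

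The remaining members of this complex were measured on the same arrays and did not pass the test. Kcnip2 (KChIP2) had a mean of 51.8 ± 7.01 in SHR against 33.7 ± 5.77 in WKY, a difference of 0.60 (95% interval 0.25 to 0.95, adjusted p = 0.102). Kcnd3 (Kv4.3) had a difference of −0.07 (95% interval −0.33 to 0.19), Kcnip1 of −0.01 (−0.28 to 0.25), Kcnip4 of −0.02 (−0.23 to 0.20), Dpp6 of −0.05 (−0.25 to 0.16) and Dpp10 of −0.15 (−0.42 to 0.13). Of 39 potassium channel genes tested, 0 were called higher and 2 lower (5.13%, beside 1.41% of all genes), with a median of −0.03, close to that of all genes. Of 30 sodium, calcium, HCN and TRP channel genes 0 were called by limma, with 1 at an unadjusted p under 0.05.

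Other genes of neuronal signalling were called one at a time. Thy1, a glycoprotein of the neuronal surface, was bright, with 776, 687, 807, 703 and 737 on the SHR arrays, against 1224, 1259.5, 1333, 1184 and 1182 on the WKY arrays. Every SHR value was well below every WKY value, a difference of −0.77 (SE 0.0906, adjusted p = 7.90e-05); the dimmer probe set gave −0.34 with no overlap between the groups, but was not called (adjusted p = 0.144). Thy1 was the only called member of 18 general neuronal genes (5.56%, beside 1.41% of all genes), whose median was 0.00. The GABA-degrading transaminase gene Abat had a mean of 119 ± 9.31 in SHR against 153 ± 11.7 in WKY, and its difference of −0.39 (SE 0.0928, adjusted p = 0.0392) was lost without any one array other than SHR array 2 or 3 (adjusted p 0.0691 to 0.117). Nrcam, a neuronal cell adhesion molecule, rose by 0.81 (SE 0.125, adjusted p = 0.00102) on the brightest of its 3 tested probe sets, while the other 2 gave −0.26 and −0.28, neither called, and their mean was not called (adjusted p = 0.791).

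The enzymes that define the C1 neurons did not differ detectably. Th had 109, 116, 140.1, 118 and 126 on the SHR arrays, against 113, 147, 104, 136 and 108 on the WKY arrays, and the groups overlapped almost completely. The 95% interval of its difference was −0.29 to 0.25, that of Dbh −0.25 to 0.55, and that of Pnmt −0.37 to 0.49. For Ddc, the decarboxylase, the interval was −0.24 to 0.25, and for the vesicular transporter Slc18a2 −0.11 to 0.39. Of 8 tested genes of catecholamine synthesis and transport, 0 were called by limma and 1 had an unadjusted p under 0.05. A 2-fold change lay outside the interval of each of these 5 genes.

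The lists of GABA and glycine, of angiotensin and of nitric oxide signalling, systems that shift blood pressure through the RVLM, had 1 called member each. Abat was the only one called of 21 GABA and glycine genes (4.76%, beside 1.41% of all genes). Agtrap, which binds the angiotensin type 1 receptor and promotes its internalisation, had 61.9, 61.1, 51.5, 41.5 and 45.7 on the SHR arrays, against 26.9, 43.7, 25.1, 29.2 and 15.7 on the WKY arrays. The groups overlapped because WKY array 2 was above SHR array 4, and the difference of 0.93 (SE 0.211, adjusted p = 0.0307) was lost without any one array other than SHR array 4 or WKY array 2 (adjusted p 0.0501 to 0.101). Gucy1a1, the alpha subunit of the guanylate cyclase that nitric oxide activates, had 165, 188, 184, 172 and 155 on the SHR arrays, against 116, 119, 101, 122 and 114 on the WKY arrays. These groups were separate, with a difference of 0.56 (SE 0.100, adjusted p = 0.00448), but the call ended with the mean of its probe sets (adjusted p = 0.0734) and in the fit of all 24 arrays (adjusted p = 0.0849). The beta subunit gene Gucy1b1 had a difference of −0.23 (adjusted p = 0.660).

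Agtrap was the only one called of 6 tested genes of the renin-angiotensin and mineralocorticoid list (16.7%, beside 1.41% of all genes), in which angiotensinogen (Agt) had a difference of 0.10 (95% interval −0.12 to 0.33) and the mineralocorticoid receptor gene Nr3c2 of 0.03 (−0.23 to 0.30). Gucy1a1 was the only one called of 15 nitric oxide and cGMP genes (6.67%). A share of a list this short rests on 1 gene. The receptor gene Agtr1a, with a mean of 14.7 ± 2.15 in SHR against 15.6 ± 4.27 in WKY, and the neuronal nitric oxide synthase gene Nos1, with a mean of 15.9 ± 6.84 in SHR against 20.1 ± 8.39 in WKY, lay under the filter. By limma 0 genes were called among 22 of glutamate signalling (3 at an unadjusted p under 0.05), 4 adrenergic and imidazoline receptors (0), 25 neuropeptides (2), 21 peptide receptors (3) and 31 superoxide and antioxidant enzymes (2).

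Antigen presentation held called genes in both directions. Of 21 genes tested, 2 were called higher and 4 lower in SHR, which is 28.6% beside 1.41% of all genes, and the median was −0.10 beside −0.03 over all genes (0.01 without SHR array 2). The class I genes split: RT1-CE16 rose, while RT1-CE5 had 26.2, 26.95, 29.6, 36.4 and 36.5 on the SHR arrays, against 68.9, 85.6, 56.9, 70.6 and 67.98 on the WKY arrays, and RT1-CE12 had 198, 175, 181, 209.8 and 159.9 on the SHR arrays, against 308, 216, 252, 284 and 258 on the WKY arrays. For RT1-CE5 the groups were separate and the difference was −1.201 (SE 0.166, adjusted p = 3.86e-04). For RT1-CE12 they were separate as deposited but overlapped after scaling, on SHR array 4 and WKY array 2, and the difference was −0.54 (SE 0.114, adjusted p = 0.0185). Class I genes are close relatives and the probes of these 3 carry the suffix of sets that can match several transcripts, so their levels cannot be assigned to single genes with certainty. The invariant light chain of class I, B2m, was bright and had a difference of −0.10 (95% interval −0.39 to 0.18).

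Psmb8, a catalytic subunit of the immunoproteasome, which cuts peptides for class I, had 73.6, 74.5, 82.1, 72.6 and 85.8 on the SHR arrays, against 55.1, 46.1, 51.5, 49.9 and 42.1 on the WKY arrays. Its groups were separate, and it rose by 0.64 (SE 0.122, adjusted p = 0.00786), whereas its partner subunits Psmb9 and Psmb10 had differences of −0.40 and −0.38 (adjusted p = 0.510 and 0.312). RT1-DMb and RT1-DMa, which encode both chains of the molecule that loads peptides onto class II, were both lower. RT1-DMb had 109.8, 82.6, 90.9, 87.8 and 106 on the SHR arrays, against 134, 173, 138, 143 and 127 on the WKY arrays, a difference of −0.61 (SE 0.119, adjusted p = 0.00924). RT1-DMa had 69.6, 66.3, 86.9, 80.1 and 81.4 on the SHR arrays, against 102, 109, 104, 116 and 106 on the WKY arrays, a difference of −0.52 (SE 0.122, adjusted p = 0.0391). Neither gene's groups overlapped, but leaving out SHR array 1, 2 or 4 or any WKY array ended the call of RT1-DMa (adjusted p 0.0582 to 0.118), and the list kept 2 lower genes without WKY array 1, 4 or 5. The class II genes RT1-Ba and RT1-Da, the invariant chain gene Cd74 and the class II transactivator gene Ciita had differences of 0.24, −0.43, −0.36 and 0.05, none called.

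The promoter of RT1-DMa (RefSeq, GRCr8, reference genome) is shown as that of the class II loading pair; class II genes are known for a CCAAT element near their start, and capitals mark CCAAT on either strand.
RT1-DMa, chr20:4712286-4712585 (- strand): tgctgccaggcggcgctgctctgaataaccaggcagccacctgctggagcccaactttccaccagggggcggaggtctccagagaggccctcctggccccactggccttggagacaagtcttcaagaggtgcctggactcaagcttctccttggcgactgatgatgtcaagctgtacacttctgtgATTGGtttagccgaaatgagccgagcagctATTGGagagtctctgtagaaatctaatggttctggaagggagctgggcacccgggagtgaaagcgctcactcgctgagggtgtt
It holds 2 matches, and 11.2% of the 33469 promoters hold at least 2.

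The 15 microglia and macrophage genes and the 24 interferon response genes held 0 called members by limma, with 3 and 1 at an unadjusted p under 0.05. The summed intensity of the microglial markers Aif1, Cx3cr1 and Csf1r was 243 to 299.8 in SHR and 257 to 299 in WKY. Of 23 cytokine, chemokine and adhesion genes, Chi3l1 and Il18 rose and 0 fell (8.70% called, beside 1.41% of all genes). Il18, a cytokine released after inflammasome activation, had 75.2, 72.9, 60.3, 74.1 and 72.9 on the SHR arrays, against 53.4, 49.2, 38.8, 36.01 and 38.00 on the WKY arrays, with a difference of 0.71 (SE 0.135, adjusted p = 0.00830). Among 9 complement genes 1 was called (11.1%): C1r, the first protease of the classical pathway, fell by 0.88 (SE 0.125, adjusted p = 5.58e-04), with a mean of 63.99 ± 11.1 in SHR against 114 ± 12.6 in WKY; its partner C1s had a difference of −0.44 (adjusted p = 0.0625). The C1r call ended in the fit of all 24 arrays (adjusted p = 0.127).

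Genes induced by glucocorticoids held 2 rises. Sgk1, a kinase that raises the number of sodium channels at the cell surface, had 696, 350.5, 464, 395 and 285 on the SHR arrays, against 197, 201, 236, 201 and 234 on the WKY arrays. Every SHR value was above every WKY value, but SHR array 1 was far above the other 4, and the difference was 0.94 (SE 0.169, adjusted p = 0.00493). The call was kept without any one array and ended in the fit of all 24 arrays (adjusted p = 0.392). That fit keeps the RVLM difference but adds the spread within the other structures. In the SHR paraventricular nucleus Sgk1 ran from 93.3 to 610. Cdkn1a, the cell cycle inhibitor p21, had 119, 111, 151, 137 and 117 on the SHR arrays, against 62.7, 68.7, 61.4, 61.9 and 53.2 on the WKY arrays. Its groups lay apart, with a difference of 1.01 (SE 0.121, adjusted p = 8.82e-05). Of 14 genes tested these 2 were called (14.3%, beside 1.41% of all genes), and the median was −0.01. The classical responders Fkbp5 and Tsc22d3 had differences of −0.04 (95% interval −0.31 to 0.22) and −0.02 (−0.26 to 0.21), and Klf9 of 0.28 (0.10 to 0.46, adjusted p = 0.148). The receptor gene itself, Nr3c1, had a difference of 0.01 (−0.21 to 0.23).

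**Figure D4:**
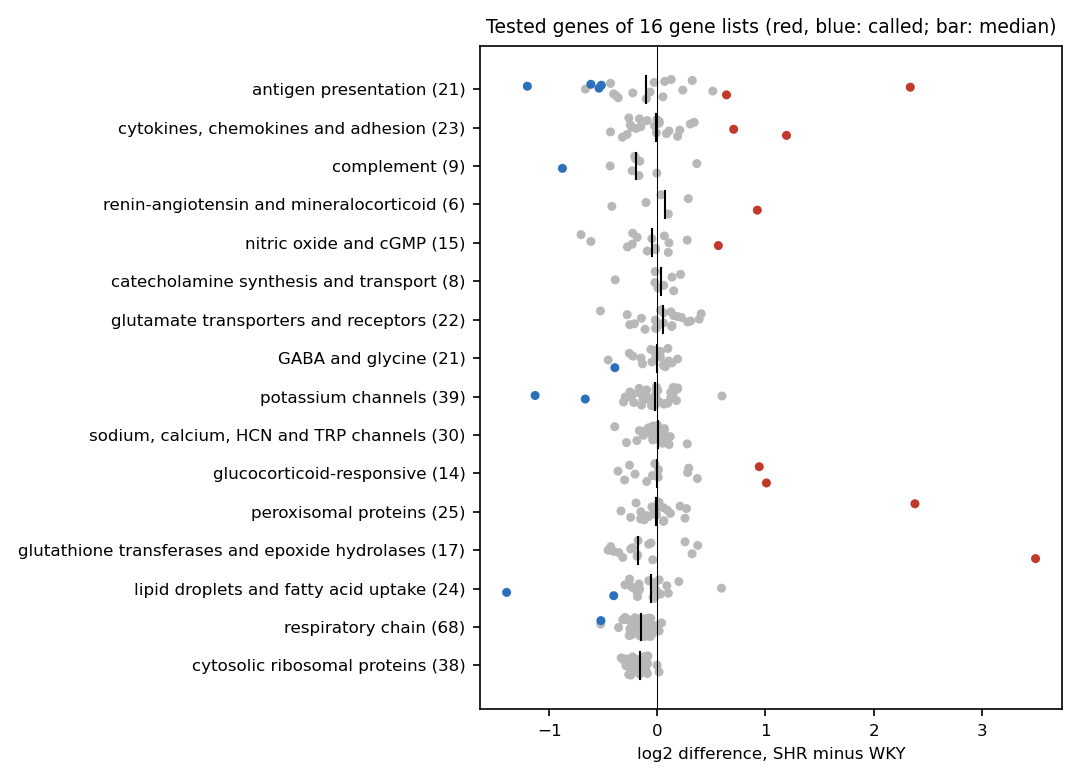
Log2 difference (SHR minus WKY, x axis) of every tested gene in 16 gene lists (y axis, number of tested genes in brackets); red points are genes called higher in SHR, blue points genes called lower, grey points not called, and the black bar is the list's median. Called genes stand out singly from lists whose medians lie between −0.20 and 0.07.

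Metabolic lists held 1 or 2 called genes each. Pxmp4 was the only one called of 25 peroxisomal genes (4.00%, beside 1.41% of all genes), whose median was −0.01. Ephx2 was the only one called of 17 glutathione transferases and epoxide hydrolases (5.88%), and the microsomal hydrolase gene Ephx1 had a difference of −0.04 (95% interval −0.33 to 0.25). Of 24 genes of lipid droplets and fatty acid uptake, Cidea and Acsl3 fell, and 0 rose (8.33% lower, beside 0.893% of all genes). Acsl3, an acyl-CoA synthetase of droplets and the endoplasmic reticulum, had 741, 767, 621, 776 and 783 on the SHR arrays, against 1025, 929, 930.0, 965 and 915 on the WKY arrays. The groups did not overlap, but the difference of −0.40 (SE 0.0940, adjusted p = 0.0360) was lost without any one array other than SHR array 2 or 5 or WKY array 3 (adjusted p 0.0550 to 0.1205).

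The 68 respiratory chain genes and the 38 cytosolic ribosomal protein genes had medians of −0.15 and −0.16, beside −0.03 over all genes, and 3 and 1 of them lay above 0. These medians rested on SHR array 2. Taken array by array against the WKY mean, the median of the respiratory chain genes was −0.76 on SHR array 2 and −0.15 to 0.15 on the other SHR arrays, and that of the ribosomal genes −0.87 and −0.22 to 0.21. Without that array the list medians were 0.00 for both lists. The fit with array weights, which gives less weight to arrays that deviate, gave −0.06 and −0.07. Ndufv3, a subunit of complex I, was the only called member of either list. It made 1.47% of the respiratory chain genes, close to the 1.41% called of all genes. Its mean was 319 ± 40.3 in SHR against 446 ± 16.3 in WKY, a difference of −0.52 (SE 0.114, adjusted p = 0.0237). Its other probe set pointed the other way, and the call ended without SHR array 1 or WKY array 2, 4 or 5 (adjusted p 0.0581 to 0.0764).

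Genes of chromatin were called in both directions. Of 41 histone and chromatin modifiers, Actr8 and Crebbp rose and Setd1b fell (7.32%, beside 1.41% of all genes). Crebbp, the histone acetyltransferase CBP, had a mean of 189 ± 23.5 in SHR against 126 ± 7.95 in WKY, a difference of 0.55 (SE 0.101, adjusted p = 0.00579) that ended with the mean of its probe sets (adjusted p = 0.222). Of 38 heat shock and endoplasmic reticulum stress genes, 1 was called (2.63%). Atf6, a stress sensor of that compartment, rose by 0.62 (SE 0.123, adjusted p = 0.0117), while the chaperone gene Hspa5 had a difference of 0.02 (95% interval −0.20 to 0.23).

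Of 36 genes of DNA repair and chromosome condensation, Ncaph and Hmces fell and 0 rose (5.56%, beside 1.41% of all genes). Septin5 was the only one called of 34 synaptic vesicle and exocytosis genes (2.94%), and Gabarapl1, a protein of autophagosome membranes, of 27 autophagy and mitophagy genes (3.70%). Ephx2 was also the only one called of 11 genes listed for reported SHR strain differences in other tissues (9.09%). Limma called 0 of 16 eicosanoid genes (1 at an unadjusted p under 0.05), 9 serotonin genes (0), 7 cholinergic (1), 14 purinergic and adenosine (3), 2 monoamine degradation genes (1) and 2 red blood cell genes (1). It likewise called 0 of 32 G protein and RGS genes (3), 36 of adenylyl cyclase and calcium signalling (0), 10 immediate early genes (1) and 19 circadian clock genes (4). Of all 10415 tested genes, 955 had an unadjusted p under 0.05. In the circadian list 15 of 19 differences lay above 0, beside 40.9% of all genes. Its median was 0.05 and its highest difference 0.93. The region lists of 7 medulla and hindbrain, 6 hypothalamus and forebrain and 6 cerebellum genes also held 0 called, with 1 each at an unadjusted p under 0.05.

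Markers of cell types and of tissue outside the parenchyma were examined beside these counts. In bulk tissue fewer cells of a type and less RNA per cell cannot be told apart. The lists of 14 astrocyte, 15 oligodendrocyte and 17 endothelial genes held 0 called members by limma, with 1, 1 and 2 at an unadjusted p under 0.05. Ttr, which is strongly made by the choroid plexus, had 65.8, 40.95, 62.1, 117 and 56.1 on the SHR arrays, against 88.5, 110.0, 130.0, 234 and 156 on the WKY arrays. The groups overlapped, and its difference of −1.11 (SE 0.271, adjusted p = 0.0485) was lost without any one array other than SHR array 4 or WKY array 1 (adjusted p 0.0643 to 0.132). Ttr was the only one called of 13 choroid plexus, ependymal and meningeal genes (7.69%, beside 1.41% of all genes). The summed intensity of Ttr, Folr1 and Kl was 93.3 to 140.4 in SHR and 125 to 269.5 in WKY, with Kl under the filter and none of the 3 at 0. By group means, Ttr made up most of this sum. Folr1 had a mean of 29.0 ± 8.17 in SHR against 33.4 ± 5.51 in WKY. Kl went the other way, with 9.86 ± 8.61 in SHR against 4.13 ± 2.87 in WKY.

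Haemoglobin beta (Hbb), a measure of blood left in the tissue, had 577, 335, 617, 648 and 819 on the SHR arrays, against 851, 996, 808, 798 and 906 on the WKY arrays. The groups overlapped because the highest SHR value was above the lowest WKY value, with a difference of −0.62 (adjusted p = 0.165). The part of choroid plexus or blood in the differences of other genes was not tested. Rlbp1, a retinoid carrier found in glia, had 454, 428, 451, 441 and 471 on the SHR arrays, against 594, 661, 589, 596 and 598 on the WKY arrays, a separation of the groups with a difference of −0.47 (SE 0.0890, adjusted p = 0.00836); the call ended in the fit of all 24 arrays (adjusted p = 0.531).

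Several of the brightest called genes changed by less than 2-fold. Pcp4l1, a relative of a calmodulin-binding Purkinje cell protein, had 1193, 1022, 805, 1090.3 and 1185 on the SHR arrays, against 395, 538, 770.1, 481 and 699 on the WKY arrays. Both groups spread widely without overlapping. It rose by 0.88 (SE 0.164, adjusted p = 0.00708) and its other probe set by 0.97 (SE 0.143, adjusted p = 7.69e-04), and the first call ended in the fit of all 24 arrays (adjusted p = 0.0564). Ythdf2, which binds methylated adenosine in messenger RNA and speeds its decay, had 307, 255, 293, 282 and 275 on the SHR arrays, against 504, 554, 477, 569 and 612 on the WKY arrays. Its groups lay far apart, and it fell by 0.97 (SE 0.108, adjusted p = 4.36e-05). The dimmer probe set of Ythdf2 gave −0.07 (95% interval −0.34 to 0.21), and with all 24 arrays the call ended (adjusted p = 0.0657). Tmcc3, a coiled-coil protein of the endoplasmic reticulum, rose by 0.47 (SE 0.101, adjusted p = 0.0202), with a mean of 676 ± 80.7 in SHR against 476 ± 30.5 in WKY, a call that ended without SHR array 4 or 5 or WKY array 2 or 3 (adjusted p 0.0516 to 0.0722).

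Probe sets of a gene did not always give the same answer. Of the 147 called genes 33 had at least 2 tested probe sets. For 9 of them another probe set was called in the same direction, for 1 in the opposite direction, and for 23 no other was called, of which 8 had a probe set of opposite sign. The gene with opposed calls was Gabarapl1. Its bright probe set had 1404, 1592, 1497, 1517 and 1693 on the SHR arrays, against 1075, 1182, 1060.1, 913 and 955 on the WKY arrays. The dim one had 249.8, 172, 152, 203 and 249 on the SHR arrays, against 345, 442, 405, 309.7 and 329 on the WKY arrays. The bright set was higher in SHR by 0.54 (SE 0.0978, adjusted p = 0.00494) and the dim set lower by 0.88 (SE 0.141, adjusted p = 0.00160), each without overlap, and the mean of both was −0.17 (adjusted p = 0.679). Which transcripts each set reads was not tested, nor was how well the probes match the sequence of either strain.

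Stat3, a transcription factor of cytokine signalling, had 120.0, 86.3, 60.5, 101 and 117 on the SHR arrays, against 191, 180.0, 225, 130.0 and 203 on the WKY arrays. That was a difference of −0.98 (SE 0.175, adjusted p = 0.00448), while its other probe set gave −0.08 (95% interval −0.45 to 0.30). The call ended with the mean of the probe sets (adjusted p = 0.0836) and in the fit of all 24 arrays (adjusted p = 0.318). Naxd, which repairs damaged NADH, fell by 0.76 (SE 0.157, adjusted p = 0.0150) on one probe set, and the mean of its probe sets was not called (adjusted p = 0.554).

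**Figure D5:**
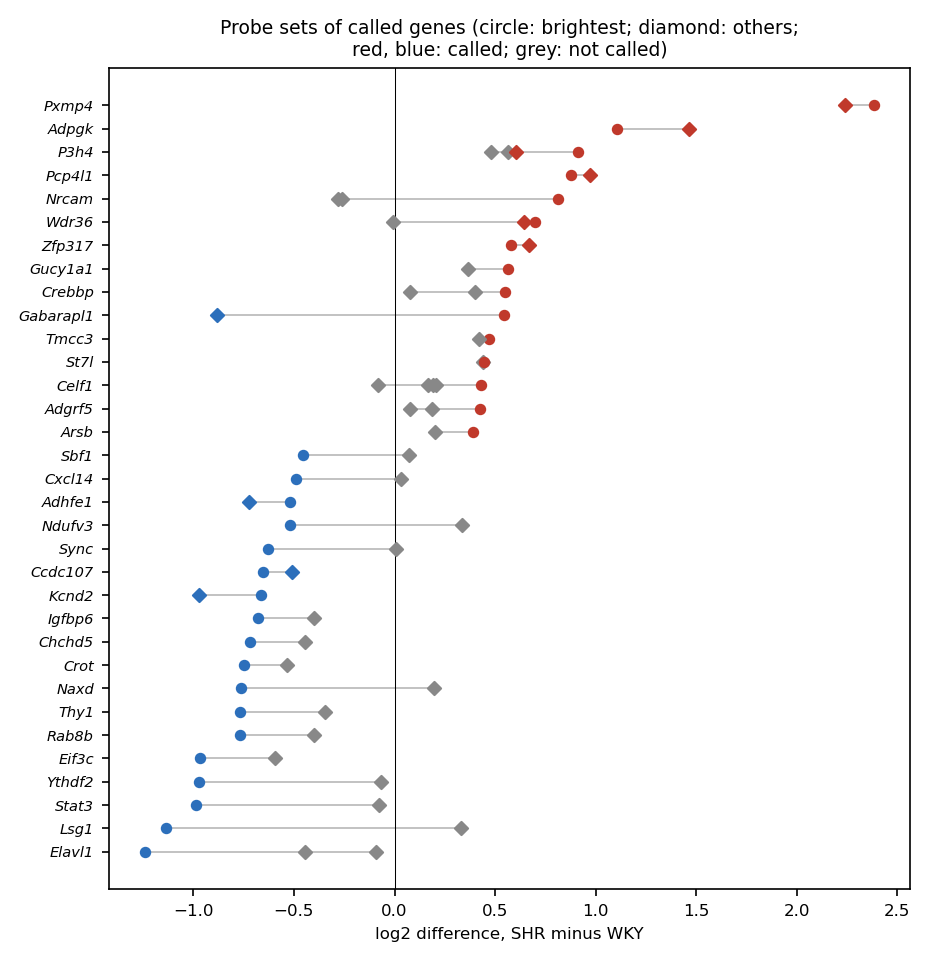
Log2 difference (SHR minus WKY, x axis) of each tested probe set of the 33 called genes that have at least 2 (y axis); circles are the brightest probe set, which represents the gene, and diamonds the others, in red where called higher in SHR, in blue where called lower and in grey where not called. Pxmp4 and Adpgk have both probe sets called to the right of 0, and Gabarapl1 alone has a called set on each side.

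A further 33 called probe sets belonged to 32 genes whose brightest probe set was not called. One of them, chosen after its values were seen, reads Mobp, a basic protein of myelin. This probe set had 629, 722, 566, 648 and 557 on the SHR arrays, against 1455, 1395, 1348, 1319 and 1257 on the WKY arrays. The strains lay far apart, with a difference of −1.15 (SE 0.0862, adjusted p = 4.17e-07). The brightest Mobp probe set, with a mean of 3607 ± 159 in SHR against 3819.5 ± 538 in WKY, had a difference of −0.10 (95% interval −0.34 to 0.13), and the third one −0.27 (−0.51 to −0.03, adjusted p = 0.415). The myelin genes Mbp and Mog had differences of −0.03 and 0.00.

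Called genes were next to each other in the rat RefSeq gene order in 4 pairs, and in each pair both were lower in SHR. Of all 147 called genes 93 were lower, and how many such pairs chance would give was not tested. These were Hacd2 and Mylk, Setd1b and Rhof, RT1-DMb and RT1-DMa, and Birc7 and Nkain4. Hacd2, an enzyme of very long fatty acid elongation, fell by 0.61 (SE 0.125, adjusted p = 0.0148), a call lost without SHR array 1 (adjusted p = 0.0561). Rhof, a GTPase that forms filopodia, fell by 0.50 (SE 0.103, adjusted p = 0.0141), a call lost without WKY array 4 (adjusted p = 0.0529). Birc7, an inhibitor of apoptosis, fell by 0.62 (SE 0.136, adjusted p = 0.0251), and leaving out any one array other than SHR array 3 or WKY array 3 ended its call (adjusted p 0.0528 to 0.0740). Nkain4, a protein that binds the sodium pump, fell by 0.73 (SE 0.166, adjusted p = 0.0304), a call ended by leaving out any one array but SHR array 4 or WKY array 1 or 5 (adjusted p 0.0543 to 0.0996).

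Probe sets with no gene name also held differences of several fold. Of the 295 called among 18625 tested probe sets (1.58%), 98 had no gene name, 59 of them higher and 39 lower in SHR. Before the filter 9780 of 31042 probe sets had no gene name, so a like share of the calls is no trait of unnamed sets. The probe set 1390722_at had 575, 664, 631, 673 and 590.1 on the SHR arrays, against 74.2, 65.4, 77.3, 81.5 and 72.5 on the WKY arrays. Its adjusted p of 4.13e-12 was the smallest of all, with a difference of 3.05 (SE 0.0980). The probe set 1388071_x_at had 106, 123, 118, 95.7 and 121 on the SHR arrays, against 518, 481, 521, 494 and 449 on the WKY arrays, with a difference of −2.16 (SE 0.0941, adjusted p = 3.22e-10). In both, the strains were several-fold apart with little spread. Also high in SHR were 1395521_at, with a difference of 2.55, and 1391089_at, with 2.42, and low were 1393108_at, with −2.41, and 1379544_at, with −2.12, and all 6 kept their call without any one array. The lower strain was dim for 1395521_at (WKY mean 17.5 ± 4.56), 1393108_at (SHR 16.6 ± 5.08) and 1379544_at (SHR 24.6 ± 2.57). These values lay below the median of any array, where log2 values without a pseudocount are poorly determined.

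The same probe sets were also read in the other structures of SHR rats, for which no WKY arrays were analysed here. Ephx2 was 95.8 to 121 in the neurointermediate lobe, 122 to 147 in the supraoptic nucleus and 19.9 to 134 in the paraventricular nucleus. It was 98.2 to 131 in the SHR RVLM and 3.12 to 21.1 in the WKY RVLM. The paraventricular median was 109, far above the lowest value there, which lay within the WKY RVLM range. This was not particular to Ephx2: the lowest paraventricular value was 26.7 beside a median of 251 for Zfp597, and 53.6 beside 183 for RT1-CE16. Pxmp4, at 91.1 to 124, and Fry, at 613 to 762, held no such value there. Tstd1 was 73.9 to 129.9 in the lobe, 37.6 to 46.6 in the supraoptic and 30.2 to 74.5 in the paraventricular nucleus, against 13.6 to 39.5 in the SHR RVLM and 117 to 177 in the WKY RVLM. No strain difference in those structures can be read from these values.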

How the data were processed

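Messenger RNA was measured on 10 Affymetrix arrays of the RVLM, 5 from SHR and 5 from WKY rats, grouped by the strain and tissue in the labels; an unnumbered title was taken as array 1. The deposited values are intensity, a linear signal per probe set, made with GCOS 1.2 per the submitters' processing notes. Per the labels' protocols, tissue was kept in RNAlater, and RNA was purified with QIAzol and RNeasy columns and amplified. Scaling settings and detection calls were not given in the sources used here. Each array had a 2% trimmed mean of 100.03. Precision is limited by the number of arrays.

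Of 31099 probe sets 57 controls were left out. The array's annotation table gave 1 gene to 20826 probe sets, several to 436 and none to 9780. Log2 intensities, without pseudocount, were shifted to a common array median, probe sets with a mean above the 40th percentile were kept (18625), and strains were compared with limma 3.58.1 (R 4.3.3; lmFit, then eBayes with an intensity trend). Benjamini-Hochberg adjusted p was taken over all tested probe sets, two-sided. SE is that of the log2 difference, intervals are 95%, and means and SDs are of deposited intensity. A gene was its tested probe set with the highest mean.

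The members and the 48 gene lists were chosen with earlier results of these data known. Named by rule were the 15 largest rises and falls among called genes without overlap (placeholder symbols passed over), the 10 smallest adjusted p, fixed catecholamine and blood pressure genes, at most 4 called members of a list, the 8 widest gaps between probe sets, adjacent called genes, the 3 largest rises and falls without a gene name and the 6 brightest called genes; subunits, list members and markers named without a call come from the same lists. Gene order and promoters come from RefSeq. The result of 1 gene list is not reported here. On simulated data with independent noise and 200 changed probe sets, 6 unchanged ones were called. Alternatives were values as deposited, quantile normalization, pseudocounts of 16 and 64, no filter, the 60th percentile, no trend, array weights, a replicate block, all 24 arrays, the mean of probe sets, and each array left out; list counts with arrays left out were added after seeing the data.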

Additional observations from a re-analysis of the deposited data

Results flagged for a closer look

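In 7 of 128 groups of 5 arrays examined, 1 array stood apart from the other 4 by Dixon's test at the 95% level, which chance gives in about 1 of 20 groups. In SHR these were Acsl3 on array 3, at 621 beside 741 to 783 on the others; Atf6 on array 4, at 231 beside 185 to 198; Hacd2 on array 5, at 215 beside 142 to 159.5; Il18 on array 3, at 60.3 beside 72.9 to 75.2; Kcnd2 on array 2, at 366 beside 294 to 312; and P3h4 on array 1, at 84.4 beside 128 to 136. In WKY it was Rlbp1 on array 2, at 661 beside 589 to 598. For Hacd2, Il18, Kcnd2 and P3h4 that array lay nearer to the WKY values than the rest of its group.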

How the results depend on the processing

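Called genes numbered 147 and 102 to 136 with 1 array left out (called higher 42 to 55, against 54), and called probe sets 295 and 212 to 283 (called higher 103 to 129, against 136). Counts of lower calls depended most on the arrays: 93 lower genes became 56 to 88 and 159 lower probe sets 105 to 162 with 1 array left out, with the fewest without WKY array 4 (56 genes), SHR array 1 (60) and WKY array 5 (61). In the fit of all 24 arrays 57 genes and 96 probe sets were lower. Other settings kept these counts within 1.5 times, and the median of all tested probe sets (of genes, where their probe sets were averaged) lay within 0.04 of 0. Pseudocounts of 16 and 64 moved the difference of 4 and 39 of 59 called genes by over 1.5 times, and the mean of probe sets that of 9; no other setting or left-out array did so for the genes it tested. Of these 59 genes, which the naming rules gave, 44 kept their call with each array left out, 33 in every other setting and 31 in both. Gabarapl1 alone reversed, to −0.17 with the mean of its probe sets. The replicate number as a block gave 117 higher and 128 lower probe sets (245 in all); deviations of same-numbered arrays correlated at −0.09 to 0.11, so the numbers were not taken as pairs, and arrays 4 and 5 correlated best with their own number. The calls of Abat, Acsl3, Agtrap, Birc7, Grifin, Ifgga2l1, Ndufv3, Nkain4, RT1-DMa, Tmcc3 and Ttr also ended without the intensity trend, without the filter or under the block, and that of Rhof under the block (adjusted p = 0.0583). Dim genes such as Ephx2 in WKY have poorly determined log2 values, and detection calls were not used. No gene with a difference under 0.39 in size was called.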
